A study of Mus musculus with 6 samples.

Results

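The serpins are a family of protease inhibitors, and the members described here are all gene symbols in the deposited table that start with Serpin, with 2 such genes left out. This rule used names and no measured value, and it found 66 of 55450 genes. The annotation gives 59 of them as protein coding and 7 as pseudogenes. The letter of the symbol marks the clade: there were 29 Serpina, 28 Serpinb, 2 Serpine, 2 Serpinf and 2 Serpini genes and 1 gene each of Serpinc, Serpind and Serpinh. Chromosome 12 carries 28 of them, chromosome 13 16 and chromosome 1 14.

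The data are droplet single-cell RNA counts from aortic tissue of mice. The labels give 3 control samples (CON) with the genotype Best3FL/FL, a floxed allele of the bestrophin gene Best3, and 3 samples (KD) with the genotype Best3SMKO. What drives the deletion, how old the animals were and whether animals were pooled is not stated in the labels. The 6 libraries were deposited as 1 table in which a number after each cell barcode tells them apart, and no label ties that number to a sample, so the groups were not compared and no value below carries a test. The libraries are called 1 to 6.

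A serpin offers a loop that its target protease cuts, and the cut serpin then refolds and traps the protease in an inactive complex. The members of clades A, C, D, E, F and I are mostly secreted and control clotting, the dissolution of clots and tissue proteases, whereas clade B members stay mostly inside cells and limit proteases of lysosomes and granules. A few members inhibit nothing and act as hormone carriers, as a collagen chaperone or as a secreted signal. In the artery wall the family is best known for its control of clotting and of clot removal.

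The libraries held 60871 barcodes, 7475 to 16269 in each, with a median of 4708 to 6289.5 unique molecular identifiers (UMIs) per barcode. After removal of low-quality barcodes and doublets 50647 cells remained, and 414 of 60454 barcode sequences occurred in more than 1 library. Marker genes named 11 classes of at least 200 cells, the largest of which were fibroblast-like (16890 cells), smooth muscle-like (14083), endothelial-like (8424) and macrophage-like cells (3340). Library 5 stood apart. It held 278 of 322 epithelial-like, 322 of 374 B cell-like, 528 of 848 T cell-like and 177 of 247 monocyte-like cells, and 11.1% of its barcodes were predicted doublets against 3.31% to 5.04% in the others. Epithelial-like cells, led by airway genes such as Scgb1a1, go against the tissue label, and members that are high there rest on that library. Best3 itself had 1 to 11 UMIs in the smooth muscle-like cells of a library, too few to check a label.

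Upstream sequence was compared within a pair of gene groups on chromosome 12. The Serpina1 genes encode copies of alpha-1 antitrypsin, the inhibitor of neutrophil elastase, and their upstream sequences are shown because they differ so little between 3 copies with 413 or more UMIs (unique molecular identifiers, 1 per captured RNA molecule) and 2 copies with 1 UMI each. They are bases before 1 RefSeq start of each gene on GRCm38.p6, 5′ to 3′ on the minus strand that carries all 5 genes. Capitals mark bases that differ from, or are inserted relative to, Serpina1e. The windows are chr12:103956960-103957147 for Serpina1e, chr12:103738200-103738389 for Serpina1b, chr12:103773634-103773822 for Serpina1d, chr12:103863625-103863812 for Serpina1a and chr12:103904962-103905149 for Serpina1c. The gene annotation starts Serpina1e at base 103958975 and Serpina1b at base 103830373. By that annotation the windows of Serpina1e and Serpina1b lie inside the gene and not before it.
Serpina1e: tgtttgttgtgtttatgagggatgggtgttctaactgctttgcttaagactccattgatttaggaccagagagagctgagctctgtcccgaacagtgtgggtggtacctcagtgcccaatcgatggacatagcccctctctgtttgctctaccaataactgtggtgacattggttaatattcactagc
Serpina1b: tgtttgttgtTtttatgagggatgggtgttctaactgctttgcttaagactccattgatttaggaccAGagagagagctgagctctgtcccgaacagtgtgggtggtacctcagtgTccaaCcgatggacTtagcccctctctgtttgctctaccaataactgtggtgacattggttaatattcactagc
Serpina1d: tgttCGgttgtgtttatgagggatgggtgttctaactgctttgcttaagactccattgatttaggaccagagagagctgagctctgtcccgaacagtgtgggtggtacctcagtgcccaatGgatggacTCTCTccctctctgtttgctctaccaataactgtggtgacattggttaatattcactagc
Serpina1a: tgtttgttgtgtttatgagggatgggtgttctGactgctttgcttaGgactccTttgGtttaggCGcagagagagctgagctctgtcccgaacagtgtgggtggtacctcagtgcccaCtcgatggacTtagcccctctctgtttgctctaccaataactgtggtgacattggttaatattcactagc
Serpina1c: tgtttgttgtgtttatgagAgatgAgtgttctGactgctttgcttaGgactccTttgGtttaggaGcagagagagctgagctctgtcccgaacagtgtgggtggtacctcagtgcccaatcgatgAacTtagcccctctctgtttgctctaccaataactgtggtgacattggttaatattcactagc
Identity to Serpina1e was 97.9% for Serpina1b, 96.3% for Serpina1d, 95.7% for Serpina1a and 95.2% for Serpina1c. Serpina1b, Serpina1d and Serpina1e had 470, 413 and 593 UMIs in the kept cells, and Serpina1a and Serpina1c had 1 each. Serpina1a and Serpina1c are also the copies with the least sequence of their own: 45.3% and 61.5% of the 90-base windows of their transcripts occur in another gene, against 16.1% for Serpina1b, 16.2% for Serpina1e and 32.3% for Serpina1d. The level of each copy is therefore uncertain, and the annotated Serpina1b gene (chr12:103728156-103830373) also spans Serpina1d (chr12:103763594-103773592) on the same strand.

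The other group holds Serpina3n, a secreted mouse relative of alpha-1 antichymotrypsin, and Serpina3c, which is shown because its upstream sequence is nearly that of Serpina3n and both were highest in the same class. The windows are chr12:104406458-104406704 on the plus strand for Serpina3n and chr12:104153873-104154119 on the minus strand for Serpina3c, from RefSeq on GRCm38.p6, with capitals where Serpina3c differs.
Serpina3n: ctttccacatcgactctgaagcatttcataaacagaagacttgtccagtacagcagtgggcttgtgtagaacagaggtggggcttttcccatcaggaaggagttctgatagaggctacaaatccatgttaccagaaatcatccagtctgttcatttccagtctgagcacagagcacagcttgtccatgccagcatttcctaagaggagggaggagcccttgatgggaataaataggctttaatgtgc
Serpina3c: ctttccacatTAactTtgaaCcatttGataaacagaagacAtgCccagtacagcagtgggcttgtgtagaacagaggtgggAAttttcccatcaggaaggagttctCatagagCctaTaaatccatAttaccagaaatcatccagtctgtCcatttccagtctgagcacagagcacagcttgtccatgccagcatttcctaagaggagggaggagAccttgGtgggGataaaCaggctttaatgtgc
These windows were identical at 92.7% of bases, whereas aligned stretches of 241 bases of Serpina3f and 166 of Serpina3g matched Serpina3n at 64.4% and 65.6%. No other Serpina3 member was compared, among them Serpina3m, which was also highest in fibroblast-like cells. Whether upstream sequence goes with class was not tested. Among classes of at least 200 cells Serpina3n and Serpina3c were highest in fibroblast-like cells, and Serpina3f and Serpina3g in T cell-like cells. With each cell classed by its own highest marker score, a mesothelial class was highest for Serpina3n and Serpina3c, at 1.05 and 1.74 times the next class.

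Of the 66 members, 48 had at least 1 UMI in the kept cells, as did 61.7% of all genes. In 23 members the level reached 5 CPM (UMIs of the gene in each 1000000 UMIs of a class) in a class of at least 200 cells, as in 27.8% of all genes. To be placed in a class, a gene needed 4 times the CPM of each other such class, and that class had to be its highest in every library with at least 20 of its cells. By this rule 10 of the 23 members were placed, against 10.0% of all genes that reached 5 CPM. Of these 10, 7 were below 5 CPM in every other class and so reached that level only where they were high, and nothing is read from the share. Fibroblast-like cells held 3 of them (Serpinf1, Serpinb6c and Serpina3c, background 1.15%), endothelial-like cells 3 (Serpina1b, Serpina1d and Serpina1e, background 0.552%) and macrophage-like cells 2 (Serpinb8 and Serpinf2, background 0.630%). Schwann cell-like cells held Serpind1 (background 1.90%) and monocyte-like cells Serpinb10 (background 0.279%). No member was placed in smooth muscle-like cells, where 1.12% of genes were, nor in T cell-like (1.15%), B cell-like (0.838%), dendritic cell-like (0.370%), epithelial-like (1.51%) or lymphatic endothelial-like cells (77 of 15400 genes). With each cell classed by its own highest marker score instead of by cluster, which adds a pericyte class among others, Serpinb8, Serpinf2 and Serpind1 were still placed and the other 7 were not. The 6 most abundant members made up 94.6% of serpin UMIs. CPM is not divided by transcript length, so 1 gene is compared across cells and genes are not ranked by level.

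**Figure D1:**
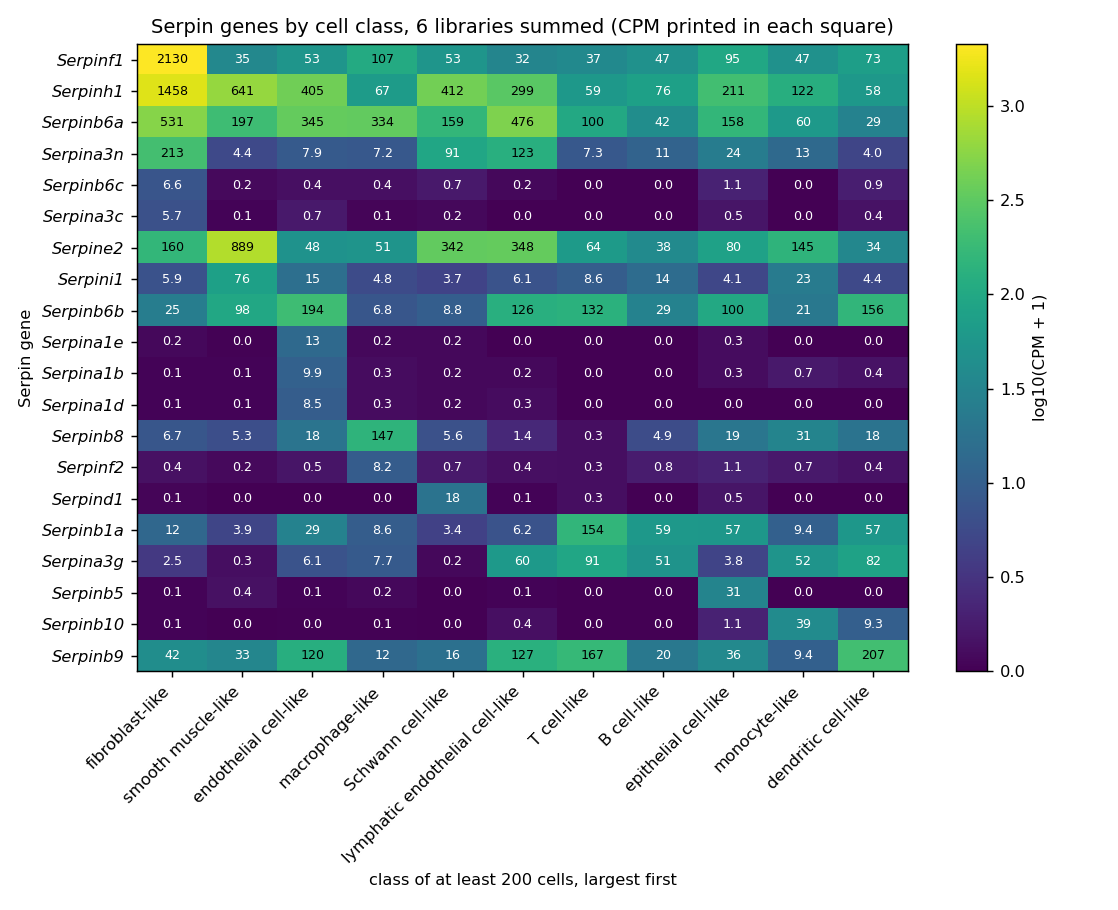
Level of the 20 named Serpin genes (rows) in the 11 classes of at least 200 cells (columns), with the CPM over all 6 libraries printed in each square and coloured on a log10(CPM + 1) scale. Serpinf1 reached 2130.1 CPM in fibroblast-like cells, and Serpina1b, Serpina1d and Serpina1e did not pass 0.669 CPM outside endothelial-like cells.

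**Figure D2:**
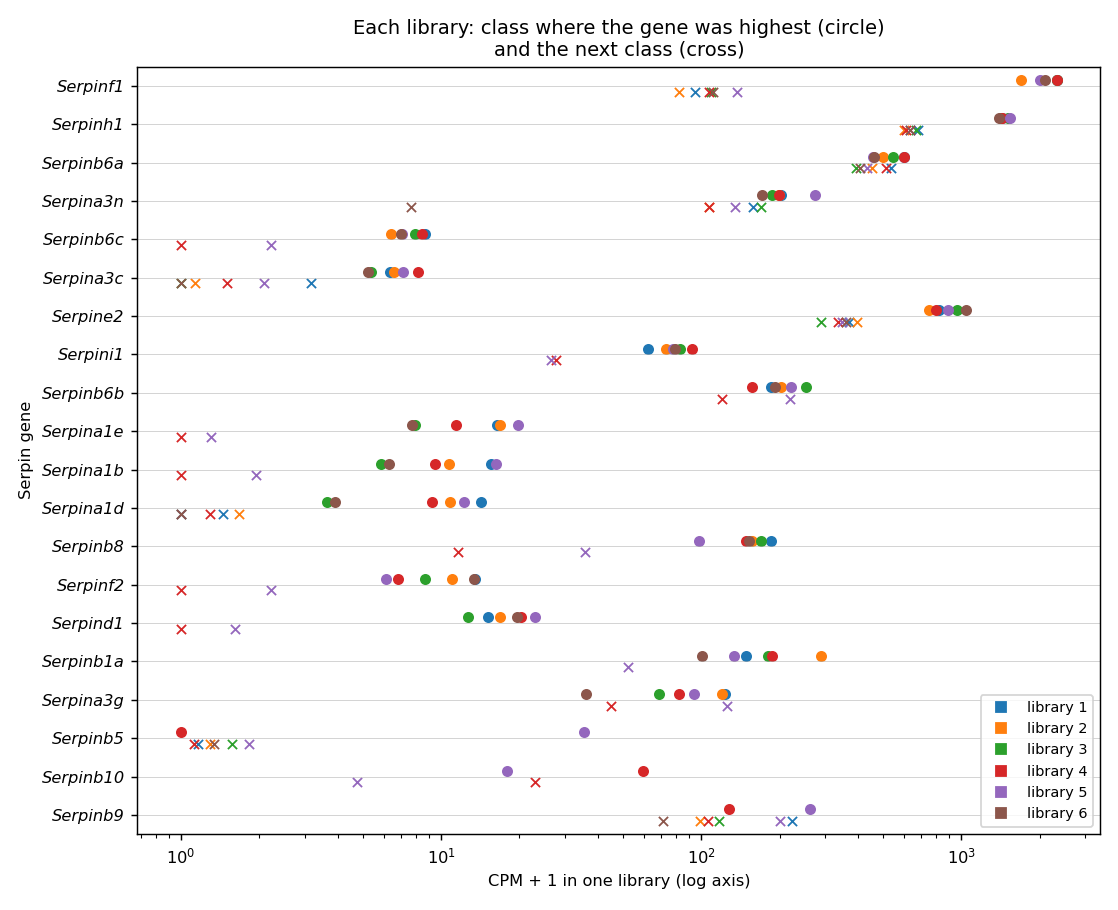
CPM + 1 on a log axis for each named Serpin gene in each library with at least 20 cells of the class, as circles in the class where the gene was highest and crosses in the next class, coloured by library. Circles and crosses were apart for Serpinf1, Serpinh1 and Serpine2, and overlapped for Serpinb6a and Serpinb9.

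Serpine2 (protease nexin, a secreted inhibitor of thrombin and of plasminogen activators, chr1:79794197-79861180) was highest in smooth muscle-like cells, with 889 CPM, from 748 in library 2 through a median of 854 to 1045 in library 6. Lymphatic endothelial-like cells came next with 348 CPM and Schwann cell-like cells had 342. The smooth muscle value of every library was above all of theirs, which ended at 397 and 491 CPM. In endothelial-like and macrophage-like cells Serpine2 stood at 5.42% and 5.78% of its smooth muscle level, and the smooth muscle markers Acta2, Tagln, Myh11, Cnn1, Smtn and Lmod1 together at 5.15% and 4.67%. In Schwann cell-like and lymphatic cells it stood at 38.4% and 39.1%, and those markers at 5.99% and 3.78%. With each cell classed by its own marker score, a pericyte class was the highest for Serpine2, at 1.01 times the next class.

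Within smooth muscle-like cells Serpine2 was higher in cluster 7 (1867 cells), led by Rgs5, Tagln, Sost and Rbp4, than in cluster 0 (10411 cells), led by Sost, Itga8 and Myh11. Serpine2 was 1190.1, 1271, 1309, 1196, 1287 and 1385 CPM in cluster 7 of libraries 1 to 6, and 814, 726, 831, 851, 819 and 941 in cluster 0. All values of cluster 7 lay above those of cluster 0. The share of all genes without overlap between these clusters was not counted, and nothing is read from it for Serpine2. The 11 immediate early and heat shock genes that tissue dissociation can induce were also higher in cluster 7 in every library, at 8492 to 12716 against 5769.8 to 9094 CPM together, and their part in the Serpine2 difference was not tested. Serpine2 did not reach the 2-fold over the rest of the class that counted as a call, and no member was called in the smooth muscle-like clusters 0, 7 and 9, where 1.14%, 0.588% and 7.66% of genes were called higher and 3.35%, 1.05% and 3.63% lower. Cluster 7 made up 22.7%, 22.3% and 17.2% of smooth muscle-like cells in libraries 6, 3 and 5 and 1.39% to 4.33% in the others. Libraries 6 and 3 were the highest for Serpine2 in the whole class, and library 6 was also the highest within cluster 0.

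Clusters 8a, 8b and 8c were left unnamed for low depth or mixed markers (1829 cells, median 1290.0 UMIs and 7.82% mitochondrial UMIs, against 10455 and 5.58% in smooth muscle-like cells). Serpine2 had 977 CPM in the 3 together, where the smooth muscle markers summed to 14325, 16344 and 14108 CPM, against 45586 in smooth muscle-like cells. The same 11 immediate early and heat shock genes summed to 26773, 10142 and 24372 CPM, against 8843. Their part in the Serpine2 level was not tested.

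**Figure D3:**
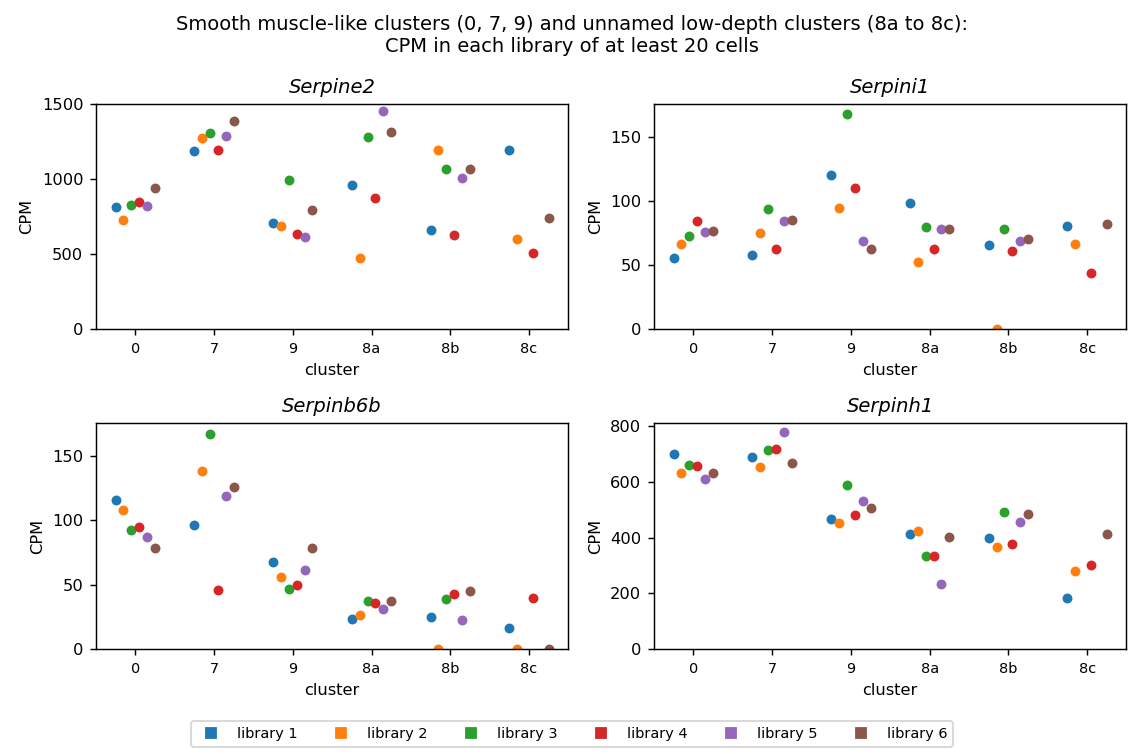
CPM of Serpine2, Serpini1, Serpinb6b and Serpinh1 in each library (points, coloured by library) with at least 20 cells of smooth muscle-like clusters 0, 7 and 9 and of the unnamed clusters 8a to 8c. Serpine2 in cluster 7 lay above cluster 0 in every library, at 1190.1 to 1385 against 726 to 941 CPM.

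In the 2 Schwann cell-like clusters, picked here after their values were seen, 7 members reached 20 CPM in either cluster, and for 3 of them the libraries did not overlap. Cluster 11 (996 cells) had Kcna1, Mbp and Mal among its leading genes, and cluster 15 (639 cells) Fabp7, Cdh19 and Sfrp5. Serpine2 was 503, 503, 420.2, 528 and 624.7 CPM in cluster 11 of libraries 1, 2, 4, 5 and 6, and 263, 198, 170.4, 151 and 207 in cluster 15. Serpina3n was 5.98, 3.097, 5.80, 8.70 and 0 CPM in cluster 11 and 154, 246, 106, 276 and 96.5 in cluster 15. Serpinh1, the collagen chaperone, was 265, 302, 275, 330.4 and 195 CPM in cluster 11 and 497, 573, 541, 647 and 333 in cluster 15. Serpine2 was higher in cluster 11, as were 12.1% of all genes without overlap, and the other 2 were lower, as were 17.8%. Serpina3n reached 20 CPM through cluster 15 alone, and nothing is read from these counts. Over all cells Serpinh1 stood at 0.506 times its cluster 15 level in cluster 11. Median depth was 2876 and 4125 UMIs per cell in clusters 11 and 15.

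The inhibitors of plasmin and of clotting proteases that the liver supplies to blood had few UMIs here. Serpinf2 (alpha-2 antiplasmin, chr11:75431732-75439591) was placed in macrophage-like cells at 8.24 CPM (150 UMIs in 140 cells, exact 95% Poisson interval 6.97 to 9.67, counting error only). It was 12.5, 9.96, 7.69, 5.83, 5.13 and 12.4 CPM in libraries 1 to 6, and no other class passed 1.09. Serpind1 (heparin cofactor, a thrombin inhibitor, chr16:17331371-17343575) was placed in Schwann cell-like cells at 17.6 CPM (104 UMIs in 92 cells, exact 95% Poisson interval 14.4 to 21.4). It was 14.1, 15.8, 11.7, 19.3, 21.9 and 18.5 CPM in libraries 1 to 6, and no other class passed 0.547. Both Schwann cell-like clusters carried it. Serpinc1, which encodes antithrombin, had 976 UMIs spread thinly over all classes, from 1.40 CPM in smooth muscle-like cells to 10.6 in B cell-like cells, the latter from 13 UMIs.

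Among the 8 genes of plasminogen activation, listed as partners of Serpine2, Serpinb2 and Serpinf2, 7 reached 5 CPM and 1 was placed. Of all genes 27.8% reached 5 CPM, and 10.0% of those were placed. Nothing is read from such counts for this or the other partner lists. Plau, the urokinase activator, was placed in macrophage-like cells at 58.7 CPM. S100a10 and Anxa2, which form a surface receptor for plasminogen, were highest in lymphatic cells at 1472 CPM and in dendritic cell-like cells at 868 CPM. Plasminogen itself, Plg, had no UMI in kept cells. Of 12 clotting proteases and cofactors 7 reached 5 CPM and 2 were placed, F10 in monocyte-like cells at 104 CPM and Klkb1 in epithelial-like cells at 14.5 CPM. F3, the tissue factor that starts clotting, was highest in epithelial-like cells at 527 CPM and Thbd, the thrombin receptor thrombomodulin, in lymphatic cells at 409 CPM.

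Serpinf1 and Serpinh1, which inhibit no protease, were both highest in fibroblast-like cells. Serpinf1 (pigment epithelium-derived factor, a secreted anti-angiogenic protein, chr11:75409769-75422701) was placed there at 2130.1 CPM, from 1701 in library 2 through a median of 2214 to 2325 in library 3. These cells held 95.1% of its UMIs. With cells classed by their own marker score, fibroblasts stayed highest at 1.74 times the next class, short of the factor of 4. Macrophage-like cells came next at 107 CPM, 5.02% of the fibroblast level, where fibroblast markers stood at 2.27%. In endothelial-like and T cell-like cells it was at 2.50% and 1.74% of the fibroblast level, and the markers at 2.35% and 1.76%.

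Serpinh1 (the collagen chaperone of the endoplasmic reticulum, chr7:99345376-99353239) had UMIs in every class. It had 1458 CPM in fibroblast-like cells and 1394 to 1532 over libraries. Smooth muscle-like cells followed at 641 CPM and 600.0 to 681 over libraries, apart from the fibroblast values. Schwann cell-like (412 CPM) and endothelial-like cells (405 CPM) overlapped over libraries. Dendritic cell-like, T cell-like and macrophage-like cells were lowest, at 57.9, 59.3 and 66.5 CPM. These values were 3.97%, 4.07% and 4.56% of the fibroblast level, where fibroblast markers stood at 2.45%, 1.76% and 2.27%. Smooth muscle markers stood there at 2.54%, 4.64% and 4.67% of their smooth muscle level. The part of RNA from fibroblast-like and smooth muscle-like cells in these low values was not tested.

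All 17 measured genes of procollagen chains and collagen-processing enzymes reached 5 CPM, and 13 of them were highest in fibroblast-like cells. The smallest of these leads was 1.04 times the next class. The share of all genes highest in fibroblast-like cells was not counted, and nothing is read from the 13. Col1a1 and Col1a2, the chains of type I collagen, were placed there at 2438 and 5494 CPM. Col3a1 and Ppib, a proline isomerase of the collagen-folding machinery, were highest there without being placed, at 2139.6 and 856 CPM.

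Inside the fibroblast-like class Serpinf1 varied by cluster. In cluster 2 (7918 cells, led by Smoc2, Fmod and Cygb) it was 2704, 1992, 2879.9, 3052, 2616 and 2452 CPM in libraries 1 to 6, and in cluster 1 (8083 cells, led by Clec3b, Sfrp4 and Scara5) it was 1939, 1369, 1911, 1812, 1702 and 1498. The lowest value of cluster 2 was above the highest of cluster 1. How many of all genes were without overlap between these clusters was not counted. In cluster 18 (167 cells, led by Apod, Ccl11 and Smoc2) 4 of 7 members compared were at most 0.5 times the rest of the class, against 6.67% of genes. They were Serpinf1 at 630.1 against 2146 CPM, Serpina3n at 31.2 against 215, Serpinb6b at 7.58 against 24.8 and Serpinb9 at 17.7 against 42.1. A gene was compared where it reached 20 CPM on either side, so a member that did so on 1 side alone had to differ. Serpinb6b and Serpinb9 did so here, and in the comparisons of clusters below the shares of members called are a description from which nothing is read. None was called higher in cluster 18 (background 6.85%) or 1 (1.95%), or lower in cluster 2 (2.33%).

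**Figure D4:**
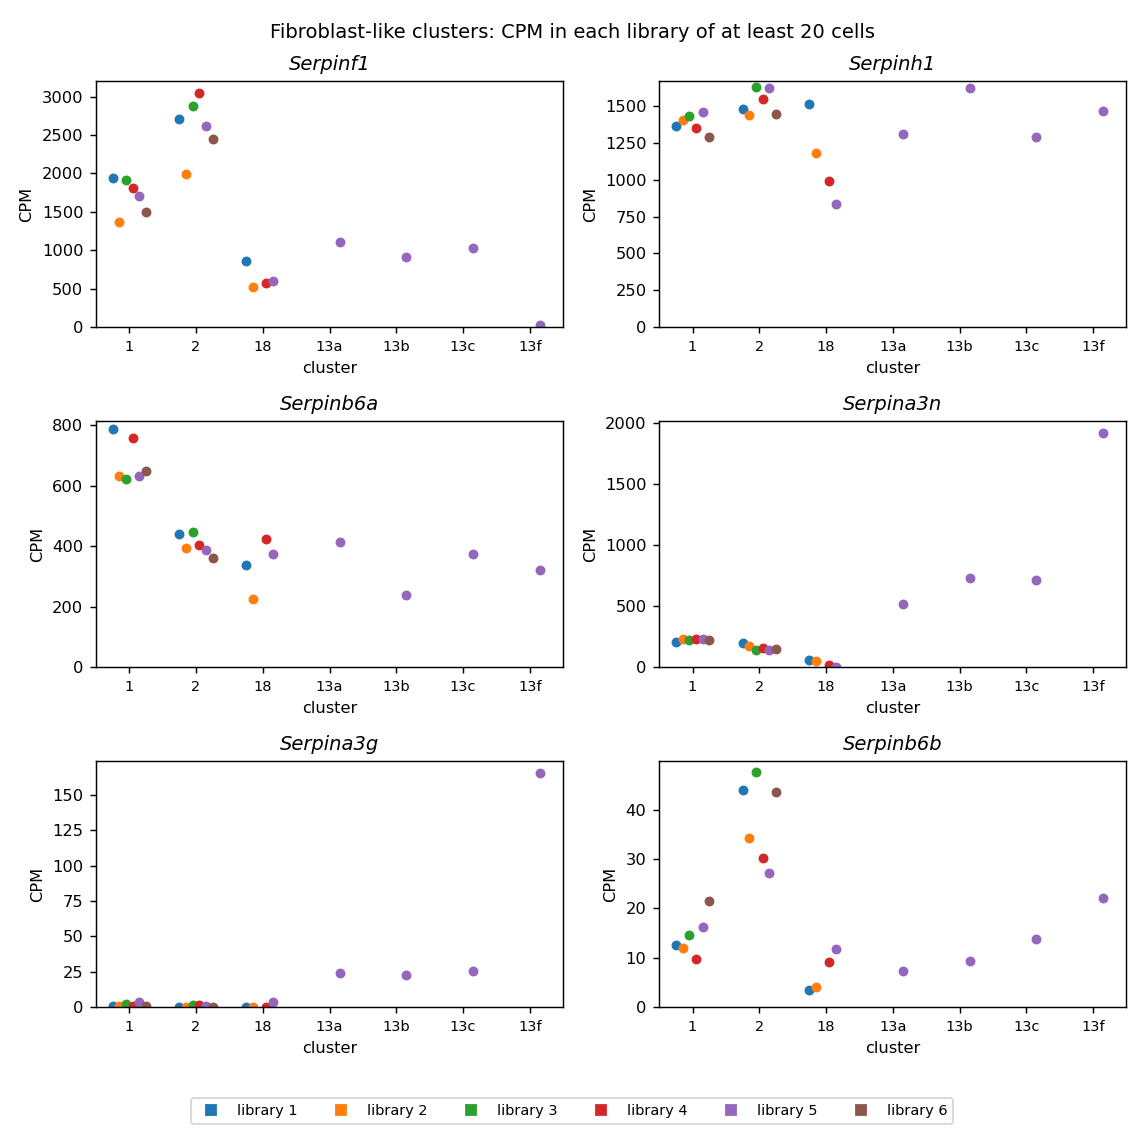
CPM of 6 Serpin genes in each library (points, coloured by library) with at least 20 cells of the fibroblast-like clusters. Clusters 13a, 13b, 13c and 13f have only a library 5 point, with Serpina3n at 517 to 1919.5 CPM and Serpinf1 at 30.4 to 1108 CPM.

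Serpina3n (chr12:104406729-104414329) had 213 CPM in fibroblast-like cells, 123 in lymphatic cells and 91.1 in Schwann cell-like cells. The fibroblast value was 201, 198, 186, 199, 273 and 171 CPM in libraries 1 to 6, with library 5 above the rest. In smooth muscle-like, endothelial-like and macrophage-like cells it stood at 2.05%, 3.69% and 3.37% of the fibroblast level, and fibroblast markers at 1.19%, 2.35% and 2.27%. In lymphatic cells it was 157, 106, 169, 107, 134 and 6.63 CPM in libraries 1 to 6. Library 6 was the low one there, with 2 of 96 cells carrying a UMI, against 25.3% to 38.2% of cells in the others.

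The high value of library 5 came with the fibroblast-like clusters 13a, 13b, 13c and 13f, of whose 722 cells 716 were from library 5. In these 716 cells Serpina3n was 739 CPM. In the other 4429 fibroblast-like cells of library 5 it was 175, below the 194 of the 11745 fibroblast-like cells of the other libraries. The 716 cells also had 34.2 CPM of Serpina3g against 2.03 in the other fibroblast-like cells of that library, 39.0 of Serpina3f against 0.690, 28.4 of Serpina3m against 2.11 and 12.99 of Serpina3c against 4.70. Serpinf1 was lower, at 936 against 2233 CPM.

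Cluster 13f (33 cells, led by Saa3, Cxcl14 and Saa1) had 7 of 12 members compared at least 2 times higher than the rest of the class, against 10.9% of genes. Of the 7, 5 were under 20 CPM in the rest of the class and were compared only because they were high in 13f. These 5 included Serpina3g at 166 against 2.02 CPM, Serpina3f at 149 against 1.51, Serpina3m at 144 against 2.85 and Serpina3c at 99.4 against 5.43. Serpina3n, above 20 CPM on both sides, was 1919.5 against 208 CPM. Serpinf1 was 30.4 CPM against 2137. In 13a, 13b and 13c 2 of 8, 4 of 10 and 4 of 10 members compared were higher, against 4.38%, 8.15% and 6.22% of genes, and Serpina3n and Serpina3g were among them each time. Of these calls 1, 3 and 3 were compared only through their level in the cluster, and Serpina3n was the member above 20 CPM on both sides. Called lower were Serpinb6b in 13a (1 of 8, against 3.54% of genes), Serpinf1, Serpinb6a and Serpinb6b in 13b (3 of 10, against 6.99%), Serpinf1 in 13c (1 of 10, against 5.89%) and Serpinf1 in 13f (1 of 12, against 11.4%). The fibroblast markers together were 17940.3 CPM in 13a, 5356 in 13b, 20325 in 13c and 2842 in 13f, against 23470.3 in the whole class, so they were low in 13b and 13f together with Serpinf1. Their part in the lower calls was not tested. Each of these calls rests on library 5 alone.

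Of the 9 acute phase and inflammation genes listed beside the Serpina3 group, all reached 5 CPM and 2 were placed, Lcn2 in lymphatic cells at 1213 CPM and Il6 in fibroblast-like cells at 138 CPM. Socs3 and Cebpd, which respond to interleukin-6, reached their highest levels, 1507 and 1216 CPM, in the Schwann cell-like class. The 716 cells of library 5 in clusters 13a, 13b, 13c and 13f were set against its other fibroblast-like cells for all 9, after values were seen. Saa3 was 903 against 3.54 CPM, Lcn2 121 against 6.47 and Hp 66.0 against 14.1. Il6 was 259.5 against 147 CPM, Osmr 216 against 149 and Stat3 448 against 314. Cebpd was 1133 against 1105 CPM, and Socs3 and Il6st went the other way, at 620.2 against 738 and 325 against 363.

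Serpina3g (an intracellular cathepsin inhibitor, chr12:104236245-104241939) had 91.1 CPM in T cell-like cells, with 35.0 to 123 over libraries, and 81.8 in dendritic cell-like cells. The order of these classes turned without library 1, where dendritic cell-like cells were highest at 1.02 times the next class. With classes of at least 50 cells, plasma cell-like cells were highest, at 168 CPM, and a plasma cell class was also highest with cells classed by their own marker score, at 1.02 times the next class. In lymphatic cells it differed between libraries. Library 3 had 336 CPM (459 UMIs in 54 of 157 cells, exact 95% Poisson interval 306 to 368), library 5 had 70.1 (interval 57.6 to 84.4) and library 4 had 14.8. Libraries 1, 2 and 6 had 7.20, 2.01 and 3.32 CPM. The 10 cells with most UMIs held 43.4% of those of library 3.

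Serpina3f, a close relative, was highest in T cell-like cells at 10.9 CPM among classes of at least 200 cells. This rests on 33 UMIs in 27 cells (exact 95% Poisson interval 7.53 to 15.4). Monocyte-like cells came next at 8.03 CPM, and T cell-like cells were the highest class in 3 of 6 libraries. With classes of at least 50 cells it was placed in plasma cell-like cells, at 128 CPM. It had 42.4 CPM in the lymphatic cells of library 3, 12.1 in library 5, 2.04 in library 4 and no UMI in the others. In endothelial-like cluster 6 library 5 was the high one for both genes, with 44.9 CPM of Serpina3g and 22.5 of Serpina3f, where the other libraries had 4.53 to 11.2 and 0 to 1.32. In macrophage-like cells Serpina3g was 31.0 CPM in library 5 and 0.518 to 2.85 in the others.

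Serpina3c (chr12:104146382-104153870) was placed in fibroblast-like cells at 5.73 CPM (651 UMIs in 513 cells, exact 95% Poisson interval 5.30 to 6.19), with 4.24 to 7.16 over libraries. It was 6.41 to 12.4 CPM over libraries in cluster 1 and 0.510 to 1.70 in cluster 2, without overlap. Serpina3n was also higher in cluster 1, at 208 to 234 against 141 to 199 CPM.

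Serpina1e, Serpina1b and Serpina1d, the alpha-1 antitrypsin copies, were placed in endothelial-like cells at 12.6, 9.89 and 8.48 CPM, with exact 95% Poisson intervals of 11.6 to 13.7, 8.98 to 10.9 and 7.65 to 9.39. These cells held 93.8%, 93.0% and 90.8% of their UMIs. Serpina1e was 15.4, 15.9, 6.90, 10.4, 18.8 and 6.73 CPM in libraries 1 to 6. Serpina1b was 14.5, 9.69, 4.87, 8.44, 15.2 and 5.27 CPM in the same libraries. Serpina1d was 13.2, 9.82, 2.64, 8.19, 11.2 and 2.91 CPM. Libraries 3 and 6 were the lowest for each copy. With cells classed by their own marker score, endothelial cells stayed highest for all 3, at 1.47 to 2.29 times the next class.

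Nearly all of this signal lay in endothelial-like cluster 5 (2940 cells), led by Ptprb, Cytl1 and Pecam1, with Gja5 and Bmx, known from arterial endothelium, also among its leading genes. Serpina1e, Serpina1b and Serpina1d had 31.2, 24.5 and 21.3 CPM in cluster 5, and 1.03, 0.771 and 0.514 in the rest of the class. No library of clusters 4 and 6 passed 3.68 CPM for any copy, and none of cluster 5 was below 6.43. At least 1 UMI of the 3 genes was found in 330 of 2940 cells of cluster 5 (11.2%), in 19 of 2300 cells of cluster 6 and in 5 of 3184 cells of cluster 4. In cluster 5, 150 cells carried more than 1 of the copies and 63 carried all 3, and the 10 cells with most UMIs held 17.5% of them.

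Cluster 5 had 5 of 11 members compared at least 2 times higher than the rest of the endothelial-like class, against 7.12% of genes. Of the 5, 4 were under 20 CPM in the rest of the class and were compared only through cluster 5. Beside the Serpina1 copies these were Serpinb6b and Serpini1. Serpinb6b, an intracellular inhibitor, was 405, 401, 524, 379.6, 408 and 456 CPM in cluster 5 of libraries 1 to 6. In cluster 6, led by Selp, Lrg1 and Ptprb, it was 49.6 to 106 CPM, and in cluster 4, led by Gpihbp1, Rbp7 and Fabp4, 15.4 to 28.2. The 3 clusters did not overlap, and the share of all genes without such overlap was not counted. Serpini1 was 24.96 to 37.4 CPM in cluster 5 and did not pass 9.72 in cluster 6 or 9.22 in cluster 4.

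Serpinb8 was the only member called higher in cluster 6 (1 of 8 compared), against 4.58% of genes, and it was compared only through its level in that cluster. It was 28.5 to 57.6 CPM there over libraries, 11.7 to 19.5 in cluster 5 and 0 to 2.43 in cluster 4, again without overlap. In cluster 4 it and Serpinb6b, 2 of 8 members compared, were called lower, against 9.56% of genes. Serpinb6b was also called lower in cluster 6 (1 of 8, against 5.87%). No member was called higher in cluster 4 (background 8.11%) or lower in cluster 5 (8.46%).

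**Figure D5:**
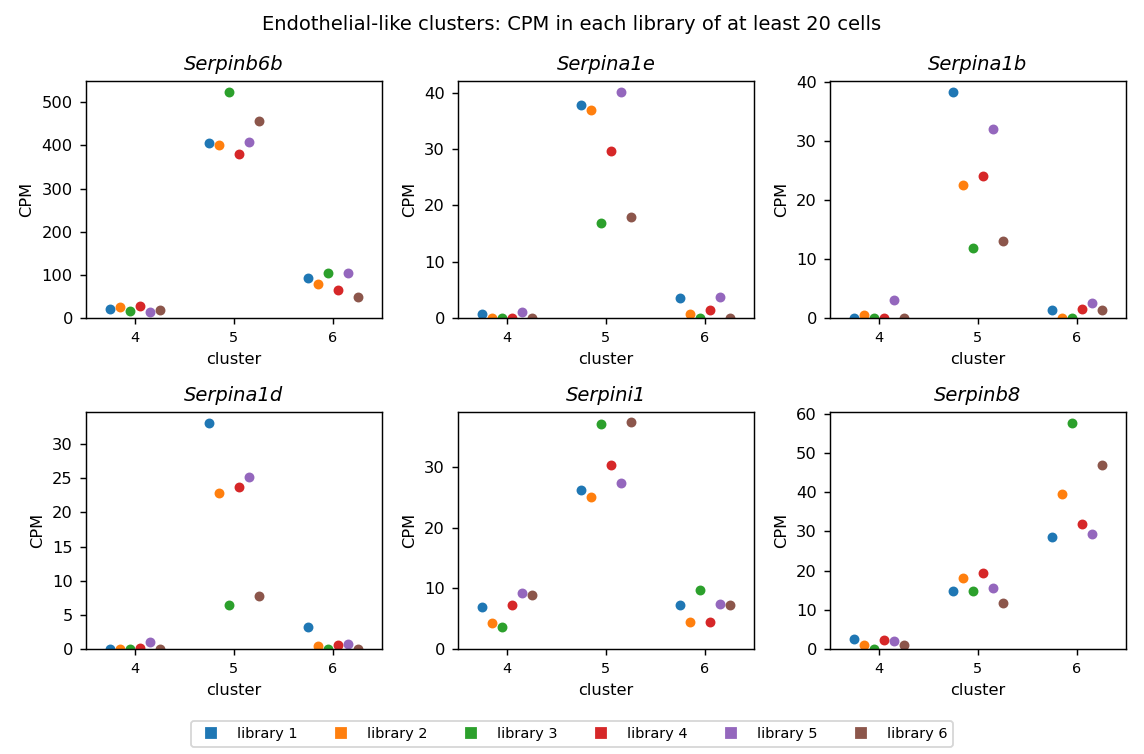
CPM of 6 Serpin genes in each library (points, coloured by library) with at least 20 cells of endothelial-like clusters 4, 5 and 6. Serpinb6b was 379.6 to 524 CPM in cluster 5 and at most 106 in the others, and Serpinb8 was highest in cluster 6 in every library.

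The intracellular clade B members were mostly spread over several classes. Serpinb6a (an inhibitor of cathepsin G and other proteases, chr13:33917918-34002794) had 531 CPM in fibroblast-like, 476 in lymphatic, 345 in endothelial-like and 334 in macrophage-like cells. The first 2 overlapped over libraries, at 458 to 602 and 391 to 538 CPM, as did the last 2. Dendritic cell-like cells were lowest at 28.7 CPM. Among fibroblast-like cells it was 622 to 786 CPM in cluster 1 and 360.2 to 446 in cluster 2, without overlap.

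Serpinb6b (chr13:32965209-32979067) had 194 CPM in endothelial-like, 156 in dendritic cell-like, 132 in T cell-like, 126 in lymphatic and 97.8 in smooth muscle-like cells. The dendritic value rests on the 26 cells of cluster 12h, and the other 209 cells of that class had 89.2 CPM, below the T cell-like, lymphatic and smooth muscle-like values. The endothelial value was 156 to 253 CPM over libraries and overlapped with the 65.0 to 216 of T cell-like cells. Macrophage-like and Schwann cell-like cells had 6.75 and 8.82 CPM. Among fibroblast-like cells it was called higher in cluster 2 (1 of 7 members compared, background 2.12%) and lower in cluster 1 (1 of 7, background 2.43%), at 27.1 to 47.7 against 9.81 to 21.5 CPM over libraries.

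Serpinb6c (chr13:33879816-33905708), another copy of this group, was placed in fibroblast-like cells at 6.65 CPM (755 UMIs in 605 cells, exact 95% Poisson interval 6.18 to 7.14), with 5.40 to 7.69 over libraries. It was 9.51 to 11.9 CPM in cluster 1 and 2.19 to 4.75 in cluster 2, the opposite order to Serpinb6b. Serpinb6d and Serpinb6e had 1 and 6 UMIs in all kept cells.

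Serpinb9 (the inhibitor of granzyme B, chr13:33003250-33017957) had 207 CPM in dendritic cell-like, 167 in T cell-like, 127 in lymphatic and 120.2 in endothelial-like cells. The 26 dendritic cell-like cells of cluster 12h carried 215 of the 467 UMIs of that class. Without them, a choice made after the data were seen, dendritic cell-like cells had 124 CPM and the T cell-like class was highest. Serpinb9 was 223, 97.7, 116, 105, 201 and 70.0 CPM in the T cell-like cells of libraries 1 to 6 and 107 to 140.2 in endothelial-like cells, so these classes overlapped. Macrophage-like and monocyte-like cells had 12.4 and 9.37 CPM. Without library 5 the dendritic cell-like class had under 200 cells and was no longer compared. The highest class left was T cell-like at 133 CPM, next to 119 in endothelial-like cells. Within endothelial-like cells it was highest in cluster 6, at 161 to 218 CPM against 90.9 to 123 in cluster 5 and 60.5 to 89.8 in cluster 4, without overlap.

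Serpinb1a (an inhibitor of neutrophil elastase and cathepsin G, chr13:32842092-32851185) had 154 CPM in T cell-like cells and was 148, 288, 179, 187, 133 and 99.96 CPM in their libraries 1 to 6. B cell-like cells followed at 58.9 CPM among classes of at least 200 cells. With classes of at least 50 cells, the 57 neutrophil-like cells came next, at 81.5 CPM. Without library 5 the B cell-like, dendritic cell-like, epithelial-like and monocyte-like classes had under 200 cells each and were no longer compared. Among the classes left, T cell-like cells had 176 CPM and endothelial-like cells came next at 28.2 CPM. Serpinb1a then passed the placement rule for the T cell-like class, with fewer classes to exceed. Among fibroblast-like cells it was 15.9 to 21.8 CPM in cluster 1 and 4.49 to 7.25 in cluster 2.

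Serpinb8 (chr1:107590006-107610484) was placed in macrophage-like cells at 147 CPM. It was 184, 155, 169, 147, 97.2 and 152 CPM in libraries 1 to 6, with library 5 the lowest. Monocyte-like cells came next with 30.8 CPM, followed by epithelial-like and endothelial-like cells with 19.4 and 18.3.

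Serpinb10 and Serpinb5 rest on few cells. Serpinb10 (chr1:107529003-107549271), known from blood cell lineages and given as a polymorphic pseudogene in the annotation, was placed in monocyte-like cells at 39.5 CPM (59 UMIs in 37 cells, exact 95% Poisson interval 30.1 to 50.9). It was 58.6 CPM in library 4 and 17.0 in library 5, the only libraries with at least 20 such cells. Without library 5 that class was too small for the rule, and the placement also ended or moved to another class under 11 of the other alternative settings. Cluster 12e (69 cells, led by Cybb, Pou2f2 and Ptprc) held 41 of the UMIs, at 148 CPM. Of its transcript windows 5.37% occur in another gene. Serpinb5 (maspin, an epithelial member, chr1:106861173-106883348) had 31.2 CPM in epithelial-like cells (114 UMIs in 54 cells) and 0.408 in the next class. It was 34.5 CPM in library 5 and had no UMI in the 24 epithelial-like cells of library 4.

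Serpini1 (neuroserpin, a secreted inhibitor of tissue plasminogen activator, chr3:75557547-75643495) had 76.3 CPM in smooth muscle-like cells and was 61.5, 71.9, 82.0, 91.3, 77.0 and 78.4 CPM in their libraries 1 to 6. Monocyte-like cells came next with 23.4 CPM. Of these, cluster 12g (32 cells, 28 from library 5) carried smooth muscle markers at 20514 CPM and Serpini1 at 84.1 CPM. Without cluster 12g, a choice made after the data were seen, the ratio to the next class went from 3.26 to 4.94 and Serpini1 was placed in smooth muscle-like cells. It was also placed there without library 5, at a ratio of 4.96 to endothelial-like cells. The monocyte-like class then had under 200 cells and was no longer compared. With cells classed by their own marker score, a pericyte class was highest for Serpini1, at 1.18 times the next class. In the smooth muscle-like clusters 0, 7 and 9 its ranges over libraries overlapped, at 55.8 to 84.4, 58.1 to 93.6 and 62.8 to 168 CPM.

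Of 11 leukocyte serine proteases, targets of several clade A and B members, 8 reached 5 CPM, and Gzma (393 CPM) and Gzmb (125 CPM) were placed in the T cell-like class. The mast cell proteases Cma1 and Mcpt4 were highest in dendritic cell-like cells, at 373 and 329 CPM. That class held 11 cells with at least 10 UMIs of mast cell markers, all of which carried Serpinb1a, at 3875 CPM (83 UMIs, exact 95% Poisson interval 3086 to 4804). The other 224 cells of the class had 20.1 CPM. Outside that class 51 kept cells also had at least 10 UMIs of mast cell markers, and 14 of them carried Serpinb1a, at 45.8 CPM. All 8 lysosomal cysteine proteases reached 5 CPM. Ctsk was placed in fibroblast-like cells at 166 CPM, and Ctsb and Ctss were highest in macrophage-like and monocyte-like cells at 3147 and 1684 CPM. Of 12 uptake receptors and heparan sulfate proteoglycans 11 reached 5 CPM. Lrp2 was placed in epithelial-like cells at 24.6 CPM. Lrp1, the receptor that clears complexes of serpin and protease, peaked in fibroblast-like cells with 1025 CPM and the proteoglycan Sdc4 in Schwann cell-like cells at 1223 CPM.

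Levels within 1 class were compared between libraries. Pairs of a member and a class were compared where each library with at least 100 cells of the class had at least 50 UMIs, and in 10 of 42 such pairs the highest library was at least 2 times the lowest. These were 2 of 9 pairs in smooth muscle-like cells (background 7.51%), 2 of 9 in endothelial-like cells (4.89%), 1 of 10 in fibroblast-like cells (6.20%), 2 of 6 in lymphatic cells (5.62%), 2 of 5 in macrophage-like cells (7.84%) and 1 of 3 in Schwann cell-like cells (7.67%). In smooth muscle-like cells they were Serpinf1 and Serpinb1a, in endothelial-like cells Serpine2 and Serpinf1, in macrophage-like cells Serpine2 and Serpinh1, in fibroblast-like cells Serpini1 and in Schwann cell-like cells Serpinh1. Without library 5, 4 pairs were that far apart. Serpinh1 in fibroblast-like cells differed least, by 1.10 times. Serpinb6b and Serpinb9 in lymphatic cells were highest in library 5, at 218 and 215 CPM, where the next library had 146 and 168. Serpine2 was 28.6 to 67.3 CPM in endothelial-like and 27.8 to 75.0 in macrophage-like cells. The smooth muscle markers ran from 1642 to 3113 and from 1266 to 2755 CPM in those cells and, as Serpine2, were lowest in library 2. In endothelial-like cells both were highest in library 5. In macrophage-like cells Serpine2 was highest in library 6, where the markers had 2113 CPM, and the markers were highest in library 1. Fibroblast markers were 144 and 406 CPM in smooth muscle-like cells of libraries 6 and 4, the lowest and highest for Serpinf1 there. They were 342 and 1025 CPM in endothelial-like cells of libraries 3 and 5, again its extremes. For Serpinh1 these were libraries 6 and 5, with 248 and 939 CPM in macrophage-like and 242 and 600 in Schwann cell-like cells. Serpini1 in fibroblast-like cells was lowest in library 4 and highest in 2, with smooth muscle markers at 1236 and 955 CPM. The part of these markers in the differences was not tested.

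The other members were rare. Of the 25 with UMIs that stayed below 5 CPM, 15 had 1 to 10 UMIs in all kept cells, among them Serpina6 and Serpina7, the carriers of corticosteroid and thyroid hormone. The remaining 10 had 16 to 467 UMIs, of which Serpina3m had most, at 3.30 CPM in fibroblast-like cells.

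No UMI was found in the kept cells for 18 members. These were Serpinb3a, Serpinb3b, Serpinb3c, Serpinb3d, Serpinb13, Serpinb1-ps1, Serpinb9d, Serpinb9e, Serpinb9f, Serpina16, Serpina1f, Serpina4-ps1, Serpina3a, Serpina3d-ps, Serpina3e-ps, Serpina3j, Serpina3l-ps and Serpini2. A count of 0 was taken to allow up to 3 UMIs, which is 0.00834 CPM over all kept cells, for counting error only. Serpini2 had 2 UMIs in barcodes that were removed. For Serpinb9f 57.2% of transcript windows occur in another gene, whose reads cannot be assigned.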

How the data were processed

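Libraries of 10x single-cell RNA from 6 aortic samples were deposited as 1 matrix of UMI counts per gene and barcode, 55450 genes by 60871 barcodes. The submitters' processing notes name bcl2fastq 5.01, Cell Ranger 3.1.0, Seurat 3.1.1 and GRCm38, whereas the header of the deposited matrix names Cell Ranger 6.1.2. No label ties the barcode suffix to a sample, so groups were not compared. Some items are not reported here.

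Barcodes with under 500 genes or over 20% mitochondrial UMIs were removed, and doublets were called per library with Scrublet. Cells were scaled to 10000 UMIs and clustered on 2000 variable genes, 30 principal components, 20 neighbours and Leiden resolution 0.5 (scanpy 1.11.5, leidenalg 0.10.2, Python 3.11.15). Serpins, the listed partner genes and mitochondrial and ribosomal genes took no part in clustering. Clusters were named from marker lists, and mixed clusters were split again. The thresholds for naming were set after the clusters were seen. UMIs were summed per class and library and given as CPM. Intervals are exact 95% Poisson intervals and cover counting error only.

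Members that reached 20 CPM in a class of at least 200 cells, or were placed, are named. Of each partner list at most 3 placed genes and the 2 unplaced genes of highest CPM are named, unless said otherwise. A cluster difference was called at 2-fold with at least 20 CPM on either side, and the same direction in all libraries that had 20 or more cells on each side. The share of all genes without overlap over libraries was counted only between the Schwann cell-like clusters. Other statements of no overlap between clusters are descriptions. The members and lists were chosen with earlier results of these data known. The placement rule was tested on simulated data for genes of at least 20 CPM on average, with no RNA carried over between classes. That test does not bear on members placed at lower levels or on carried-over RNA. Upstream sequences were found for 53 of the 66 members.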

Additional observations from a re-analysis of the deposited data

Results flagged for a closer look

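Serpina3n in fibroblast-like cells was 273 CPM in library 5, and the nearest other library had 201. The gap was 0.701 of the range over the 6 libraries, which sets this library apart by Dixon's criterion. The level was examined in this way for 17 genes, each in the class where it was highest, and chance sets apart about 1 group in 20. The fibroblast-like cells of library 5 outside clusters 13a, 13b, 13c and 13f had 175 CPM.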

How the results depend on the processing

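The count of members with at least 1 UMI was 48 under every setting that kept all libraries, except 47 without cluster 12h, and 44 to 48 with 1 library left out. The count at 5 CPM was 21 to 24 under other filters and class rules, 27 at 2 CPM, 17 at 10 CPM and 19 to 23 with 1 library left out. The count of placed members, 10, fell to 3 with cells classed by marker score, was 15 at a factor of 2 and 6 at a factor of 8, was 7 to 12 under the other settings and 9 to 12 with 1 library left out. Keeping doublets ended the placement of Serpinf2 and Serpinb6c, at 4.64 and 3.93 times the next class. Pairs of a member and a cluster that were called numbered 38, 28 at a factor of 3 and 17 to 40 with 1 library left out, the lowest without library 5. Pairs of a member and a class at least 2-fold apart between libraries numbered 10, 14 after thinning each cell to 2000 UMIs and 4 to 10 with 1 library left out, again lowest without library 5. No paired analysis was possible because no label ties a library to a sample or replicate number. Classes of few cells, such as monocyte-like and epithelial-like cells, rest on 1 or 2 libraries, and members with few UMIs are limited by depth. Without library 5 the B cell-like, dendritic cell-like, epithelial-like and monocyte-like classes were too small for the placement rule. Counts of placed members without it therefore compare fewer classes.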

Other observations

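Some small clusters outside the classes of at least 200 cells, or within them, had high serpin levels. They were chosen after their values were seen. Cluster 12h (26 cells, 22 from library 5), led by Ccl5, Ccr7 and Ccl22 within the dendritic cell-like class, had 925 CPM of Serpinb9 (exact 95% Poisson interval 805 to 1057) and 739.9 CPM of Serpinb6b (633 to 859). The 77 plasma cell-like cells, 66 of them from library 5, had 168 CPM of Serpina3g (142 to 196) and 128 CPM of Serpina3f (106 to 153).

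The 43 mesothelial-like cells, 34 of them from library 2, had 1119 CPM of Serpinh1 (1033 to 1211), 228 CPM of Serpinb6b (190.5 to 272) and 133 CPM of Serpinb1a (105 to 167). Cluster 13d (121 cells, 120 from library 5), led by Saa3, C3 and Has1 and left unnamed, had 1345 CPM of Serpina3n (1280.2 to 1412) and 72.3 CPM of Serpina3g (57.9 to 89.2).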
